A study of Mus musculus with 16 samples.

Results

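Renin, the angiotensins and the endothelins set the tone of the vessels of the kidney and the reabsorption of salt in its tubules. 9 genes of these systems were chosen by symbol: AGT, REN1, ACE, AGTR1A and AGTR2 of the renin-angiotensin system, NR3C2, which encodes the mineralocorticoid receptor, and EDN1, EDNRA and EDNRB of the endothelin system. 8 of the 9 were found among the 18132 genes of the deposited array table, and NR3C2 was not analysed here. The RNA came from whole kidneys of wildtype (WT) and IL-33-deficient mice and was measured on Illumina MouseRef-8 BeadChips. Each array is taken here as 1 kidney, which the labels do not state. The aim was to learn how the loss of IL-33 alters the early response to unilateral ureteral obstruction (UUO). IL-33 is a cytokine that is held in the nucleus and released from injured cells. In UUO the left ureter is closed, here with a metal clip, so that urine backs up and injures the kidney above it.

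There were 4 groups. UUO kidneys, taken 24 h after the operation, numbered 7 from WT and 5 from IL-33-deficient mice, and kidneys labelled as controls numbered 2 from each genotype. The Il33-deficient line had been backcrossed to C57BL/6J BomTac, and mice were 8 weeks old unless stated otherwise in the methods. The labels do not say whether the controls had a sham operation. The labels place the UUO kidneys in set 1 (3 WT, 2 IL-33-deficient) or set 2 (4 WT, 3 IL-33-deficient) and give no set for the controls. Arrays are named by the number in their label. Values are log2 intensities after quantile normalization. The lowest intensity in the table, a log2 of 6.58, is background and not zero, so fold changes of dim genes are compressed. Intensities of different genes come from different probes and were not compared with each other.

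In the renin-angiotensin system, renin released by the juxtaglomerular cells cuts angiotensinogen, and the angiotensin-converting enzyme turns the product into angiotensin II, which constricts vessels and promotes sodium retention through the type 1 receptor. Endothelin-1, made by endothelium and by collecting duct cells, constricts vessels mainly through the type A receptor, while the type B receptor of endothelium and collecting duct clears the peptide and favours relaxation and salt excretion. Both systems are known for their part in the obstructed kidney, where angiotensin II and endothelin-1 lower renal blood flow and promote scarring.

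IL33, the deleted gene, lay at 7.62 and 8.02 in WT controls and between 8.39 and 9.57 (median 9.44) in the 7 WT kidneys after UUO. In IL-33-deficient kidneys it lay at 6.88 and 6.85 in controls and at 6.88, 6.80, 7.02, 6.88 and 6.88 after UUO, so every kidney matched its labelled genotype. HAVCR1, a marker of injured proximal tubule, separated the treatments as well, at 7.07 to 7.37 in the 4 controls and 10.42 to 13.95 in the 12 UUO kidneys.

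A pair of WT UUO arrays stood apart from the others. Array 3820 had the lowest HAVCR1 of the UUO kidneys, 10.42, and array 3818 the next lowest, 12.84. Array 3818 also held some transcripts that are abundant in liver. Of the 4 liver markers, APOA1 was at 9.75 there against 6.86 to 7.19 on the other 15 arrays, and AHSG at 9.36 against 6.82 to 6.93. ALB was near background on all 16 arrays, from 6.70 to 6.92, and TTR was at 12.41 to 13.12 in the controls and lower in all 12 UUO kidneys, at 8.25 to 11.67, with 10.94 on array 3818. So 2 of the 4 markers, APOA1 and AHSG, were higher on array 3818 than on any other, and ALB and TTR were not. The summed intensity of the list was 5792 to 9232 in the controls with TTR included. Without TTR it was 1630 on array 3818 and 346 to 381 on the other 15. MUP1, HPX and SERPINA1E, chosen after their values were seen, lay at 12.05, 10.43 and 10.40 on this array and at no more than 6.96, 7.22 and 7.04 on any other. On array 3818, 23 genes exceeded all other arrays by a log2 of 1 or more, against 0 to 2 genes on each of the others. Since the liver is the main source of angiotensinogen in the body, AGT is given below with and without this array.

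**Figure D1:**
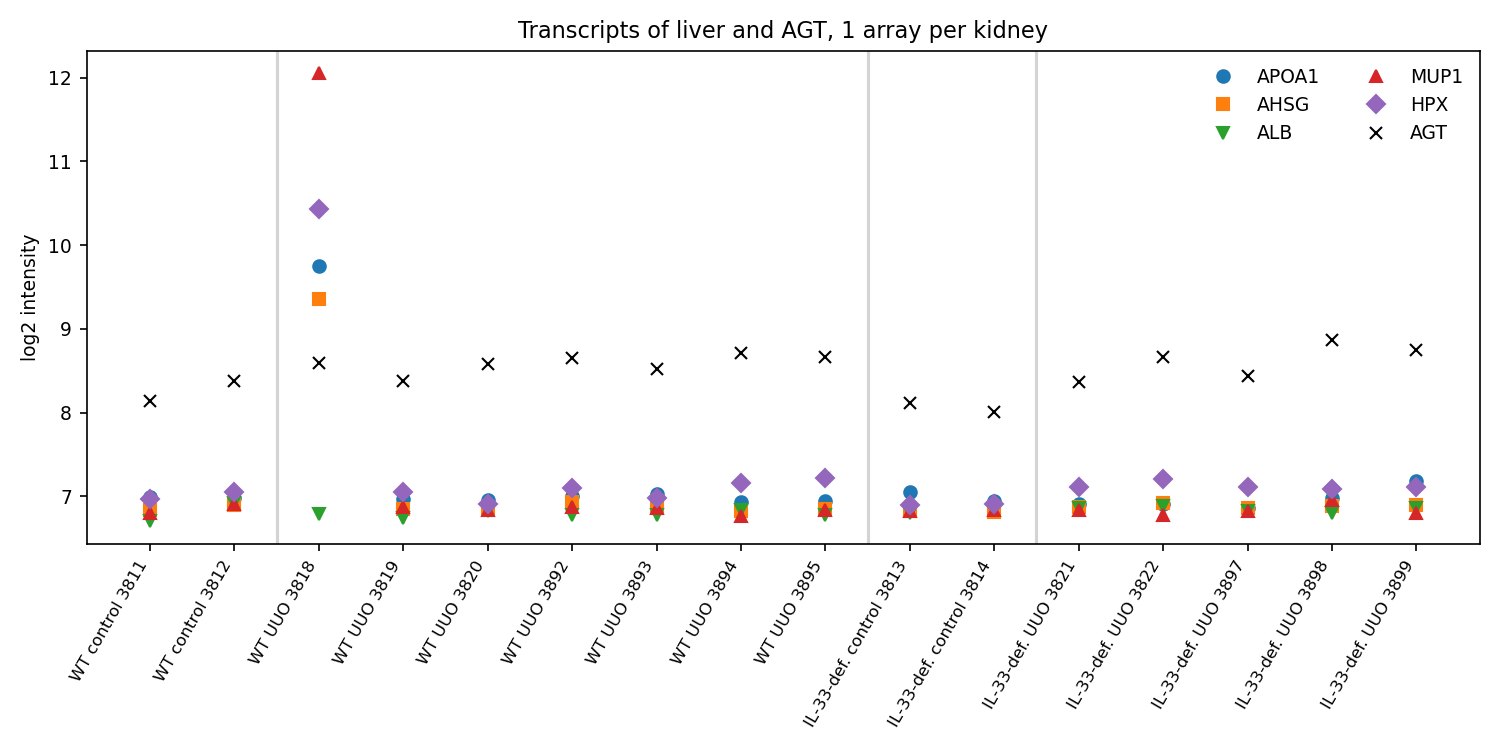
Log2 intensity (vertical axis) of the liver markers APOA1, AHSG and ALB, of MUP1 and HPX, and of AGT on each of the 16 arrays (horizontal axis, grouped by genotype and treatment with grey lines between groups). On WT UUO array 3818, APOA1, AHSG, MUP1 and HPX lie at 9.36 to 12.05, while AGT at 8.60 lies among the other WT UUO arrays.

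The response to UUO was tested in each genotype and as the mean over both, from 1 limma model of the 4 groups, with p adjusted over all 18132 genes and a gene called at an adjusted p below 0.05. For the mean response 5 of the 8 genes were called, 3 higher (EDN1, AGT, EDNRA) and 2 lower (AGTR1A, EDNRB), where 28.2% of all genes were called, 13.7% higher and 14.5% lower. Their median log2 difference was -0.01 and that of all genes -0.00112, while the median size of the difference regardless of sign was 0.34 for the 8 and 0.06 for all genes. In WT kidneys 1 of 8 was called (EDN1), against 15.2% of all genes, and in IL-33-deficient kidneys 3 of 8 (EDN1, AGT, AGTR1A), against 21.8%. These shares of so few genes are a description and were not tested. The values for all genes include dim ones, whose changes are compressed. With only genes brighter than the median gene tested, 5002 of 9066 were called for the mean response. Of the 8, only AGTR2 was not among these brighter genes. The WT count moved with single arrays, to 2 without array 3818, 3819, 3822, 3894, 3897 or 3898 and to 3 without 3820 or 3821.

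**Figure D2:**
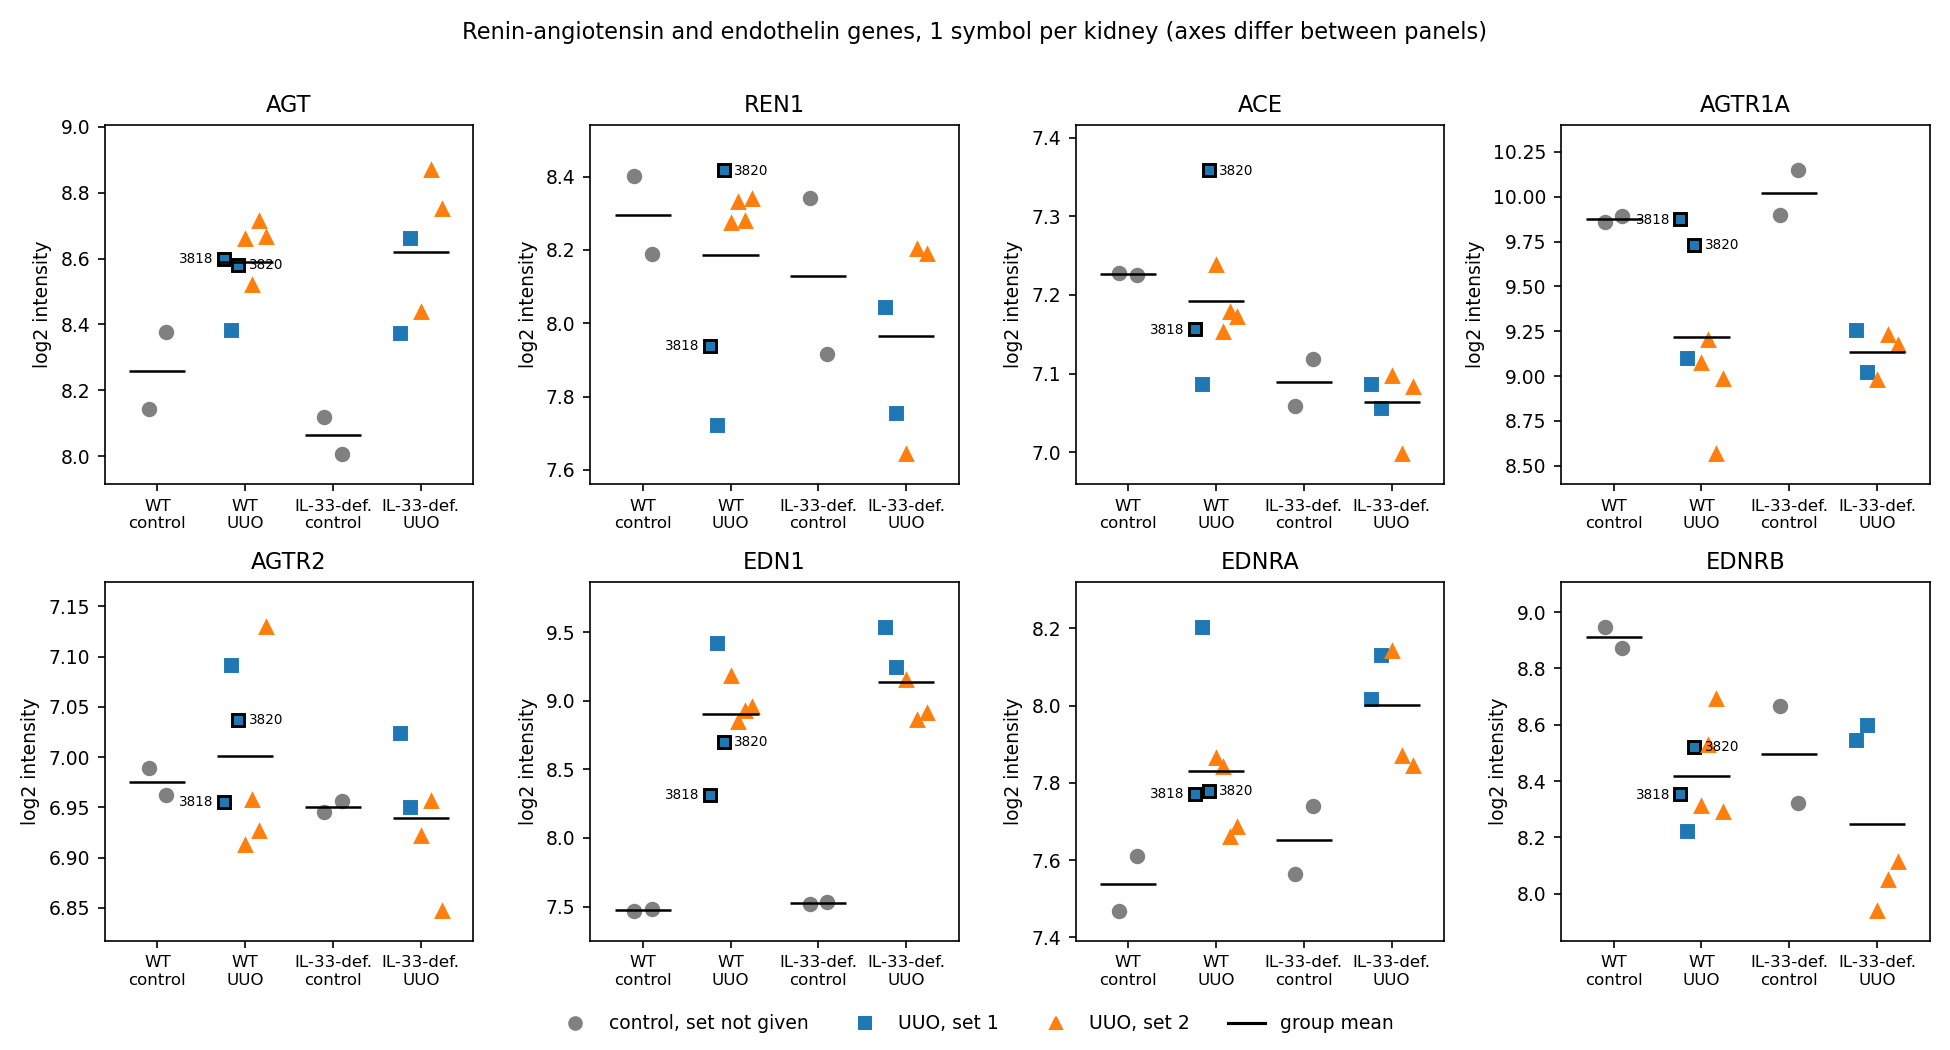
Log2 intensity of the 8 genes (vertical axes, which differ between panels) in the 4 groups of kidneys (horizontal axis), with 1 symbol per kidney, squares for set 1, triangles for set 2, circles for controls and a line at the group mean. All 12 UUO kidneys lie above all 4 controls for EDN1, and 11 of 12 lie below them for AGTR1A, with arrays 3818 and 3820 closest to the controls.

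EDN1, which encodes the precursor of endothelin-1, moved most. Its promoter, shown because EDN1 rose furthest of these genes, was taken from RefSeq (GRCm38.p6, chr13:42301226-42301525, plus strand, 250 bases before the annotated start of the gene and 50 after it). Capitals mark CCAAT at bases 48 to 52, GATAA, the core that GATA factors bind, read on the other strand at bases 259 to 263, and TGACTNA, which includes sequences bound by AP-1, at bases 287 to 293.
EDN1 promoter: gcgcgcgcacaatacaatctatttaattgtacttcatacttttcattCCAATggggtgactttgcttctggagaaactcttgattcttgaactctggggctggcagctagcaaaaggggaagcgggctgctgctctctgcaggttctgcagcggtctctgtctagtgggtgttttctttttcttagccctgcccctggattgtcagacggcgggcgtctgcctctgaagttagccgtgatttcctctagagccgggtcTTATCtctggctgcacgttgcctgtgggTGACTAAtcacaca
Searched on both strands, CCAAT occurred in 37.4% of the 32851 promoter windows of this length, GATAA in 25.4% and TGACTNA in 13.9%. These letters are a description of the window and were not tested as sites of binding.

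EDN1 lay at 7.47 and 7.48 in WT controls and between 8.31 and 9.42 (median 8.93) in WT kidneys after UUO. In IL-33-deficient kidneys it lay at 7.52 and 7.53 in controls and at 9.54, 9.25, 9.16, 8.86 and 8.91 after UUO. The 4 controls thus lay close together, from 7.47 to 7.53, and all 12 UUO kidneys were above them, array 3818 being the lowest. EDN1 rose 2.70-fold in WT kidneys (log2 difference 1.43, standard error 0.22, adjusted p = 0.000686; exact two-sided permutation p = 0.0278, the smallest that 7 kidneys against 2 allow). In IL-33-deficient kidneys it rose 3.07-fold (1.62, standard error 0.23, adjusted p = 0.000147; exact p = 0.0476, the smallest for 5 against 2). Without arrays 3818 and 3820 the WT log2 difference was 1.59, larger by construction since they held the 2 lowest values of the group. With the UUO kidneys of set 1 alone it was 1.34 with an adjusted p of 0.0760. With the lowest intensity of each array subtracted, the log2 difference was 2.03 in WT and 2.22 in IL-33-deficient kidneys.

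EDNRA, the type A endothelin receptor of vascular smooth muscle and mesangial cells, lay at 7.47 and 7.61 in WT controls and between 7.66 and 8.20 (median 7.78) after UUO. In kidneys without IL-33 it lay at 7.56 and 7.74 in controls and at 8.02, 8.13, 8.14, 7.87 and 7.84 after UUO. Within each genotype all UUO kidneys lay above the controls, with 10 of 12 above all 4 controls, and WT array 3819, at 8.20, was the highest. Over both genotypes EDNRA rose 1.25-fold (log2 difference 0.32, standard error 0.08, adjusted p = 0.00945). Taken singly the responses were 0.29 in WT (adjusted p = 0.122; exact p = 0.0833) and 0.35 in IL-33-deficient kidneys (adjusted p = 0.0560; exact p = 0.0476). The mean response was not called without WT control 3811 (0.28, adjusted p = 0.0592) or IL-33-deficient control 3813 (0.28, adjusted p = 0.0647), and the IL-33-deficient response was called without array 3819 (adjusted p = 0.0100), 3898 (0.0485) or 3899 (0.0404).

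EDNRB, the type B receptor, lay at 8.95 and 8.87 in WT controls and between 8.22 and 8.69 (median 8.35) in WT kidneys after UUO, without overlap. In IL-33-deficient kidneys it lay at 8.67 and 8.32 in controls and at 8.55, 8.60, 7.94, 8.05 and 8.11 after UUO, where the kidneys of set 1, given first, fell within the range of the controls and those of set 2 below it. Over both genotypes EDNRB fell by 0.37 on the log2 scale (standard error 0.12, adjusted p = 0.0281), and 6 of 12 UUO kidneys were below all 4 controls. The WT response was -0.49 (adjusted p = 0.0559; exact p = 0.0278) and the IL-33-deficient response -0.25 (adjusted p = 0.386; exact p = 0.381). The mean response was not called without WT control 3811 (-0.35, adjusted p = 0.101) or 3812 (-0.39, adjusted p = 0.0693), without IL-33-deficient control 3813 (-0.28, adjusted p = 0.174), or with set 1 alone (-0.23, adjusted p = 0.120). The WT response was called when array 3820 (adjusted p = 0.0463), 3821 (0.0450), 3822 (0.0384), 3897 (0.0449) or 3894 (0.0393) was left out. With set 2 alone the WT response was -0.45 (adjusted p = 0.0134) and the IL-33-deficient response -0.46 (adjusted p = 0.0155), both called. With set 1 alone the IL-33-deficient response was 0.08 (adjusted p = 0.802).

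The promoter of EDNRB (RefSeq, GRCm38.p6, chr14:103843652-103843951, minus strand) is shown as that of the endothelin gene called lower among the 8. Capitals mark CCAAT, read on the other strand at bases 105 to 109 and 145 to 149.
EDNRB promoter: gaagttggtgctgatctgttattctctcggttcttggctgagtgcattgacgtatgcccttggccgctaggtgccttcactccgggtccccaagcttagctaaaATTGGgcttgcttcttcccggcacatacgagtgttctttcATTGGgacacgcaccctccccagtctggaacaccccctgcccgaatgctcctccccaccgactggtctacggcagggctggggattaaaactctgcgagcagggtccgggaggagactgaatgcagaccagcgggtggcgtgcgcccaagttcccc
The window held no match to the other motifs searched, which were the remaining ones named for EDN1 and the TATA box core described for AGT. The EDNRA window held no match to any of them. The motifs were chosen after the windows had been searched.

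Of the other endothelin genes fixed as a list, EDN2, EDN3, ECE1 and ECE2, 1 was called higher and 1 lower for the mean response, where 13.7% of all genes were called higher and 14.5% lower. ECE1, the enzyme that releases endothelin-1 from its precursor, fell by 0.38 on the log2 scale (standard error 0.07, adjusted p = 0.00100) and was below all 4 controls in 11 of 12 UUO kidneys. Its relative ECE2 rose by 0.39 (standard error 0.09, adjusted p = 0.00339) and was above all controls in 11 of 12. EDN2 and EDN3, which encode the other endothelins, were near background on all arrays.

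AGT, which encodes angiotensinogen, the substrate of renin, lay at 8.14 and 8.38 in WT controls and between 8.38 and 8.72 (median 8.60) in WT kidneys after UUO. Without IL-33 it lay at 8.12 and 8.01 in controls and at 8.37, 8.66, 8.44, 8.87 and 8.75 after UUO. 11 of the 12 UUO kidneys lay above all 4 controls, although the lowest WT UUO kidney, array 3819, and the higher WT control were both at 8.38. Over both genotypes AGT rose 1.36-fold (log2 difference 0.44, standard error 0.08, adjusted p = 7.0e-04). The response was 0.55 in IL-33-deficient kidneys (standard error 0.12, adjusted p = 0.00318; exact p = 0.0476) and 0.33 in WT kidneys (standard error 0.11, adjusted p = 0.0672; exact p = 0.0278). Array 3818, which held the transcripts abundant in liver, had AGT at 8.60, the median of its group, and the WT response was 0.33 without it as well (adjusted p = 0.0800). The WT response was called without array 3819 (adjusted p = 0.0407), 3821 (0.0442) or 3898 (0.0451), and the IL-33-deficient response was not called without control 3814 (0.50, adjusted p = 0.0533) or with set 1 alone (0.45, adjusted p = 0.0590).

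The AGT promoter (RefSeq, GRCm38.p6, chr8:124569657-124569956, minus strand) is shown as that of the renin-angiotensin gene called higher among the 8. It held TATAA, the core of the TATA box, at bases 221 to 225, in capitals, which 24.9% of all windows hold, and none of the other motifs.
AGT promoter: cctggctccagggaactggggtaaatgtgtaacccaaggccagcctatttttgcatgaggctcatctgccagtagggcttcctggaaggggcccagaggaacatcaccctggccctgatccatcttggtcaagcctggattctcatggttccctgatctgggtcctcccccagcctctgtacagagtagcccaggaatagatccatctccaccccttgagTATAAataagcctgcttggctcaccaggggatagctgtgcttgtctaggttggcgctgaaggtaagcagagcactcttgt
Windows were found for 7 of the 8 genes, AGTR1A being the exception.

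AGTR1A, the main type 1 angiotensin receptor of the mouse kidney, lay at 9.86 and 9.89 in WT controls and at 9.90 and 10.15 in IL-33-deficient controls. After UUO it lay between 8.56 and 9.87 (median 9.10) in WT kidneys and at 9.26, 9.02, 8.98, 9.23 and 9.18 in IL-33-deficient kidneys. Of the WT kidneys, array 3818 at 9.87 lay among the controls and array 3820 at 9.73 just below them, while the other 5 were at 8.56 to 9.20. Over both genotypes AGTR1A fell by 0.78 on the log2 scale (standard error 0.17, adjusted p = 0.00295). In IL-33-deficient kidneys it fell by 0.89 (standard error 0.25, adjusted p = 0.0181; exact p = 0.0476), although the call was lost without control 3813 (-1.02, adjusted p = 0.0668), without control 3814 (-0.77, adjusted p = 0.169) or with set 1 alone (-0.88, adjusted p = 0.0518). The WT difference was -0.66 (standard error 0.24, adjusted p = 0.0828; exact p = 0.139). With set 1 alone, which holds arrays 3818 and 3820, it was -0.31 and not called, and with set 2 alone it was -0.92 (adjusted p = 0.000488). The WT difference was -0.89 without arrays 3818 and 3820, and was called without array 3818 alone (-0.77, adjusted p = 0.0153) or 3820 alone (-0.75, adjusted p = 0.0261). These arrays had the weakest HAVCR1 response and lay nearest the controls for AGTR1A itself, so leaving them out makes the fall larger by construction, and these values are no separate test of it. In RNA of whole kidneys, fewer cells of a type and less RNA per cell cannot be told apart.

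REN1, which encodes renin, varied as much within groups as between them. It lay at 8.40 and 8.19 in WT controls, between 7.72 and 8.42 (median 8.28) in WT kidneys after UUO, at 8.34 and 7.92 in IL-33-deficient controls and at 8.04, 7.75, 7.64, 8.20 and 8.19 in IL-33-deficient kidneys after UUO. The ranges of all 4 groups overlapped. Its mean response was -0.14 (95% confidence interval -0.42 to 0.15, adjusted p = 0.551), so a change of this gene at 24 h was not detected and one of up to the bounds of that interval was not excluded by these arrays.

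ACE, the angiotensin-converting enzyme, and AGTR2, the type 2 receptor, were dim. ACE lay between 7.0 and 7.36 over all 16 arrays, with a mean response of -0.03 (95% confidence interval -0.11 to 0.05, adjusted p = 0.682). AGTR2 lay between 6.85 and 7.13, with a mean response of 0.01 (-0.08 to 0.10, adjusted p = 0.938). So close to background, a change in either transcript could be missed.

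**Figure D3:**
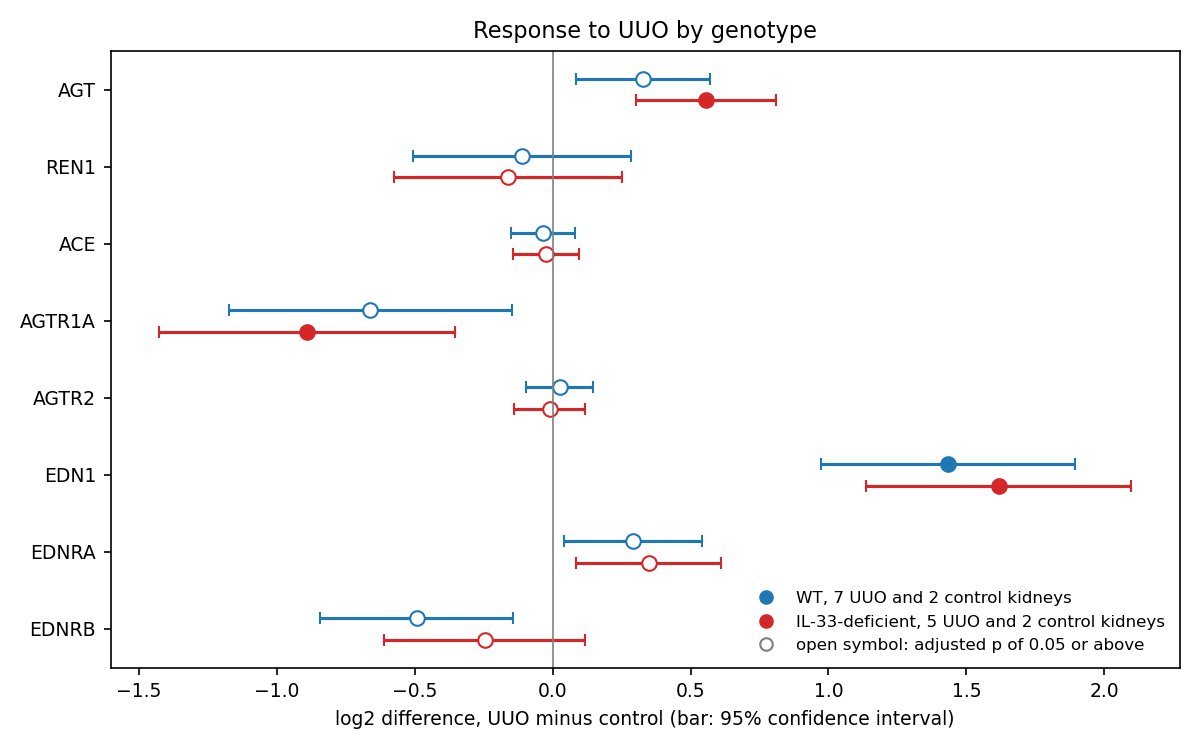
Log2 difference between UUO and control kidneys (horizontal axis) for the 8 genes in WT (blue) and IL-33-deficient (red) kidneys from limma, with 95% confidence intervals as bars and filled symbols for an adjusted p below 0.05. The intervals of the genotypes overlap for every gene, and EDN1 at 1.43 and 1.62 lies furthest from zero.

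Whether IL-33 altered these responses was tested as the difference between the genotypes in the response to UUO. limma called 0 of the 8 genes and 0% of all genes, while at an unadjusted p below 0.05 there were 0 of the 8 and 860 of all genes. The difference was 0.18 for EDN1 (95% confidence interval -0.48 to 0.85), 0.23 for AGT (-0.13 to 0.58) and -0.23 for AGTR1A (-0.97 to 0.51). It was 0.06 for EDNRA (-0.30 to 0.42) and 0.25 for EDNRB (-0.26 to 0.75). These intervals are wide because each genotype had 2 controls, and they do not show that the genotypes respond alike. Both responses are read against controls of their own genotype, and among those controls limma again called 0 of the 8 genes and 0% of all genes (0 of 8 and 664 of all genes at an unadjusted p below 0.05). EDNRB had the largest difference of the 8 between IL-33-deficient and WT controls, -0.42 (95% confidence interval -0.85 to 0.02), with WT controls at 8.95 and 8.87 above IL-33-deficient ones at 8.67 and 8.32. 2 arrays against 2 cannot reach an exact p below 0.05.

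After UUO the genotypes were compared directly over the 12 UUO arrays. None of the 8 genes was called at an adjusted p of 0.05, where limma called 1 gene, IL33 itself (0.00552% of all genes). At the threshold of the study (unadjusted p below 0.05, adjusted p below 0.25 and a fold change above 1.3) 0 of the 8 were called, against 2 genes or 0.011% of all, IL33 and ACTA2. ACTA2, named after its values were seen, encodes smooth muscle actin and was higher in IL-33-deficient kidneys by 0.67 (adjusted p = 0.233). That count of all genes rests on single arrays and on the model. It was 309 without array 3819, 94 without 3899, 31 without 3820, 6 without 3818 and 1 without any 1 of 8 others. With no array left out it was 127 with the 4 groups in 1 model, 168 with only the brighter genes tested and 80 with array weights. With the set as a block it was 1, a gene that was lower, so ACTA2 was not called in that model. The contrast in the paper has 4 WT kidneys where this one has 7, and against the WT kidneys of set 2, which number 4, 226 genes and 0 of the 8 were called. At an unadjusted p below 0.05 there was 1 of the 8, ACE, and 1874 of all genes. ACE was lower in IL-33-deficient kidneys, at 7.0 to 7.10 against 7.09 to 7.36, by a log2 of 0.13 (exact two-sided permutation p = 0.00884 over 792 splits; adjusted p = 0.336), and 3 of 5 IL-33-deficient kidneys lay below every WT kidney. The difference was -0.13 in set 1 and -0.13 in set 2, and it lay in the range of intensities next to background. Between controls ACE differed by -0.14 in the same direction, at 7.06 and 7.12 against 7.23 and 7.23.

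The difference between the genotypes after UUO was also read within each set, and whether it differs between the sets was not tested. The labels do not say what sets the kidneys apart into sets. EDNRB after UUO was higher in IL-33-deficient kidneys of set 1, at 8.55 and 8.60 against 8.35, 8.22 and 8.52 in WT, and lower in those of set 2, at 7.94, 8.05 and 8.11 against 8.29 to 8.69, without overlap in either set. The log2 difference was 0.21 in set 1 and -0.42 in set 2, and -0.16 when set was a block (adjusted p in that model = 0.660). In set 2 EDNRB was 1 of 81 genes, of 18132, that passed the threshold of the study (adjusted p = 0.181). Between controls EDNRB differed by -0.42 in the same direction, and with set 2 alone the difference of the responses was -0.0073. EDN1 differed by 0.58 in set 1 and by -0.0045 in set 2 (0.24 with the set as a block). AGTR1A differed by -0.43 in set 1, which holds arrays 3818 and 3820, and by 0.17 in set 2 (-0.08 with the set as a block). REN1 was lower in IL-33-deficient kidneys by 0.13 in set 1 and 0.29 in set 2 (adjusted p = 0.556 in the block model), and EDNRA higher by 0.16 and 0.19 (adjusted p = 0.468), while AGT differed by -0.00347 and 0.05 (adjusted p = 0.948). Between the sets themselves, with the genotype in the model, limma called 0 of the 8 genes and 0% of all genes (1 of 8, AGTR1A at -0.36, and 1833 of all genes at an unadjusted p below 0.05). EDN1 differed between the sets by -0.07, and by -0.43 without arrays 3818 and 3820. These held the 2 lowest EDN1 values of set 1, and 1 WT array is left in that set without them, so the larger difference follows by construction.

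The genes around these systems were read from fixed lists for the mean response. Of 22 other genes of the renin-angiotensin-aldosterone system, 3 were called higher and 4 lower, where 28.2% of all genes were called, and their median log2 difference was 0.000835. ANPEP, the aminopeptidase that degrades angiotensin III and a brush border enzyme, fell by 1.52 (standard error 0.19, adjusted p = 2.2e-05) and was below all controls in 11 of 12 UUO kidneys. HSD11B1, which regenerates active glucocorticoid, fell by 0.75 (adjusted p = 5.7e-06), PRCP, a lysosomal carboxypeptidase that acts on angiotensin II, by 0.35 (adjusted p = 0.0381) and MAS1, the receptor of angiotensin 1-7, by 0.21 (adjusted p = 8.1e-04). The MAS1 response was -0.05 in WT and -0.37 in IL-33-deficient kidneys, and the difference between them, -0.31, was not called (adjusted p = 0.973). MAS1 lay at 7.18 and 6.97 in WT controls and at 7.36 and 7.37 in IL-33-deficient controls, 3 of 12 UUO kidneys were below all 4, and the genotypes differed by -0.03 after UUO. THOP1, an endopeptidase that forms angiotensin 1-7, rose by 0.50 (adjusted p = 4.3e-04), PREP by 0.34 (adjusted p = 0.00155) and CTSA by 0.15 (adjusted p = 0.0287).

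A fixed list of targets of the mineralocorticoid receptor held 11 genes measured here, of which 5 were called lower and 0 higher. Of all genes 14.5% were called lower and 13.7% higher. The median log2 difference was -0.35 for the list and -0.00112 for all genes. NEDD4L was not called (0.29, adjusted p = 0.0890), with 9 of 12 UUO kidneys above all controls. SCNN1A, a subunit of the epithelial sodium channel, lay at 9.44 to 9.57 in controls and at 7.80 to 9.35 after UUO, below all controls in 12 of 12 kidneys, and fell by 1.21 (standard error 0.24, adjusted p = 0.00102). USP2, an enzyme that removes ubiquitin, fell by 1.34 (standard error 0.22, adjusted p = 2.7e-04), TSC22D3 by 0.87 (standard error 0.16, adjusted p = 6.4e-04) and KLF9 by 0.59 (standard error 0.11, adjusted p = 6.5e-04). TSC22D3 and KLF9 respond to glucocorticoids as well, and the activity of the mineralocorticoid receptor was not tested. SGK1, the kinase that keeps the sodium channel at the membrane, was not called (-0.06, adjusted p = 0.856), with a response of 0.33 in WT and -0.46 in IL-33-deficient kidneys and a difference between them of -0.79 (adjusted p = 0.973). It was at 10.94 to 11.25 in controls and at 10.51 to 12.07 after UUO, with 12.07 on array 3820 and 11.66 on array 3818. Of 7 markers of tubule segments 4 were called lower and 0 higher, among them SLC12A1 of the thick ascending limb (-3.12, adjusted p = 7.0e-05) and AQP2 of the collecting duct (-1.25, adjusted p = 3.7e-04). UMOD (-0.47), LRP2 (-0.21) and CALB1 (-0.02) were not called. The part of these tubule segments in the lower SCNN1A was not tested.

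Of 15 genes of the renin cell and the macula densa 3 were called lower and 0 higher, where 14.5% of all genes were called lower and 13.7% higher. Among them VDR, the vitamin D receptor, fell by 1.13 (standard error 0.17, adjusted p = 1.5e-04) and ADCY6, an adenylyl cyclase, by 0.35 (standard error 0.04, adjusted p = 1.6e-05), each below all controls in 12 of 12 UUO kidneys. Of 16 genes of receptor signalling 2 were called higher and 3 lower, near those shares of all genes. GNA13 (0.38, adjusted p = 0.0140) and PLCB3 (0.37, adjusted p = 0.00347) rose, while ITPR1 (-0.27, adjusted p = 0.0163), GNAQ (-0.19, adjusted p = 0.00814) and ARRB1 (-0.10, adjusted p = 0.00380) fell. Of 22 genes of other vasoactive systems 2 were called higher and 5 lower. KNG2, a kininogen, rose by 0.81 (standard error 0.06, adjusted p = 4.5e-07) and RAMP2, which pairs with the receptor of adrenomedullin, by 0.51 (adjusted p = 0.00103). NPR3, the clearance receptor of natriuretic peptides, fell by 0.58 (adjusted p = 9.8e-06), AVPR1A, a vasopressin receptor, by 0.46 (adjusted p = 6.7e-06), KLK1, tissue kallikrein, by 0.44 (adjusted p = 0.0363) and NPR2 by 0.34 (adjusted p = 0.0139).

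**Figure D4:**
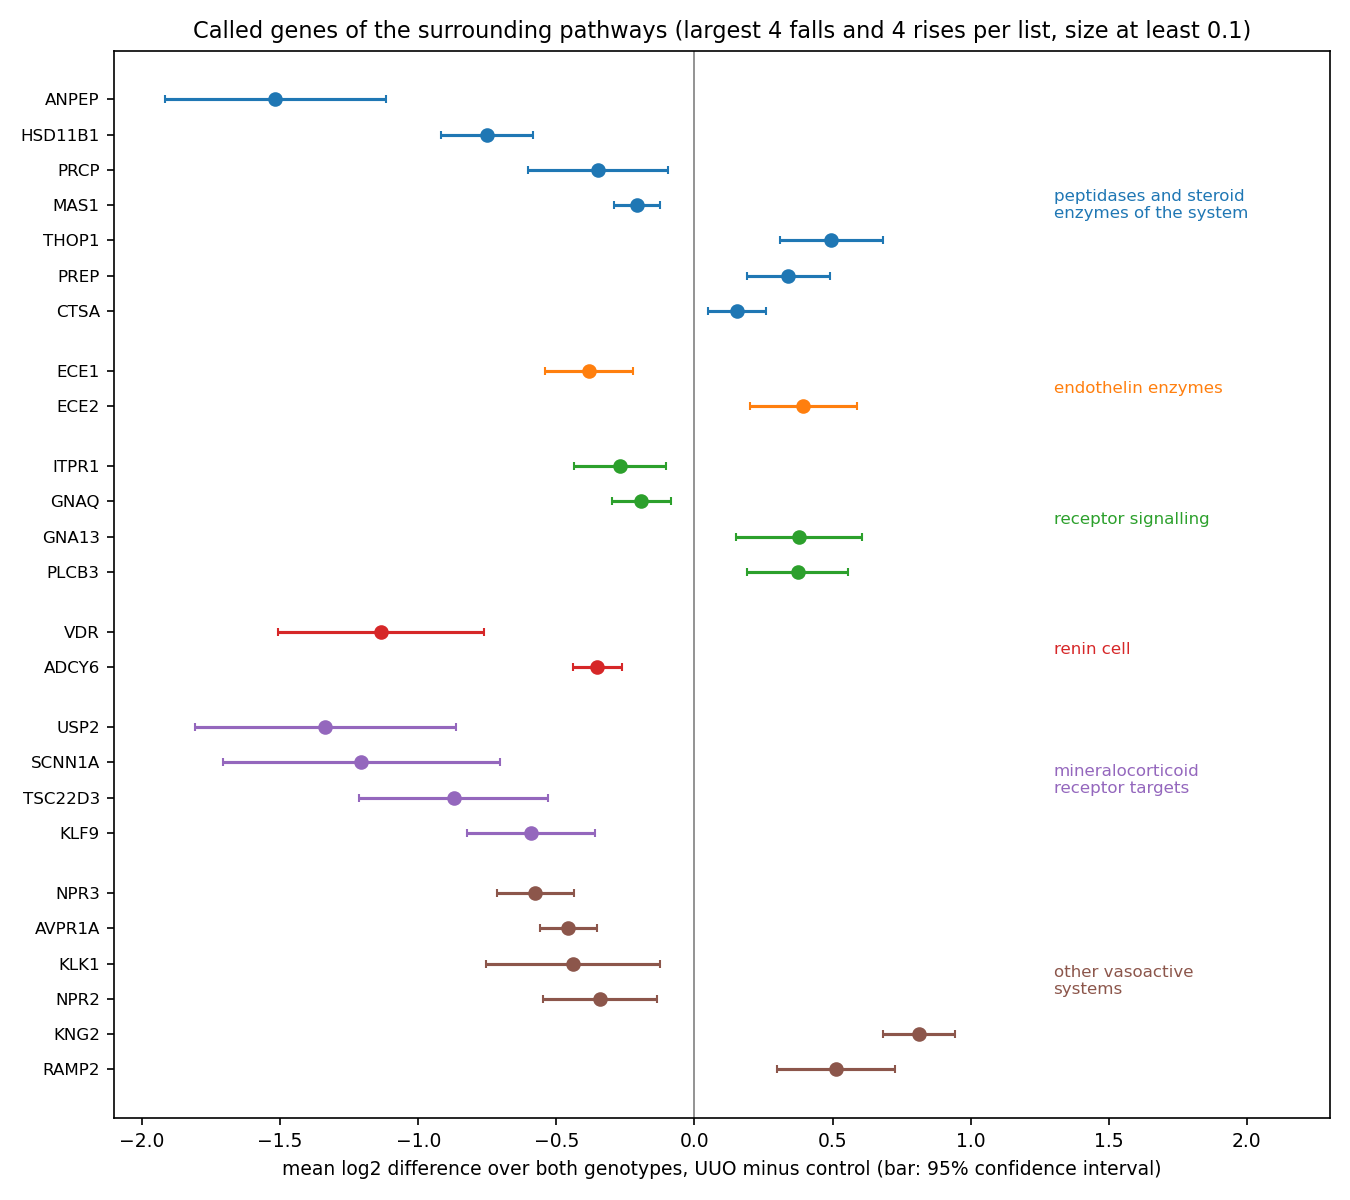
Mean log2 difference between UUO and control kidneys over both genotypes (horizontal axis) for genes called in each fixed list with a difference of at least 0.1 in size, at most 4 falls and 4 rises per list, with 95% confidence intervals as bars. ANPEP at -1.52, USP2 at -1.34 and SCNN1A at -1.21 lie lowest and KNG2 at 0.81 highest.

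Markers of cells that carry these receptors are set beside the 13.7% of all genes called higher and the 14.5% called lower. Of 7 markers of mural cells 4 were called higher, ACTA2 by 1.01, TAGLN by 0.55, PDGFRB by 0.55 and DES by 0.52, and 1 lower, MYH11 by a log2 of -0.35. ACTA2 rose by 0.49 in WT and by 1.54 in IL-33-deficient kidneys, and the difference of 1.04 was not called (adjusted p = 0.832). Of 6 endothelial markers 2 were called lower, TEK (-0.30) and EHD3 (-0.56), and 0 higher, while PECAM1 (0.04), CDH5 (0.03) and EMCN (-0.04) were not called. Of 8 leukocyte markers 3 were called higher, S100A8 by 2.06, LYZ2 by 0.93 and CD68 by 0.79. The LYZ2 response was 0.35 in WT (adjusted p = 0.538) and larger by 1.15 in IL-33-deficient kidneys (adjusted p = 0.00217 for that response and 0.973 for the difference). None of the 5 adrenal or 3 fat markers was called, and CYP11B1 and CYP11B2, the enzymes that complete corticosterone and aldosterone, stayed near background. The part of these cells in the changes of EDN1, EDNRA and EDNRB was not tested.

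The genes most like each called gene were those with the smallest root mean square difference of mean-centred log2 values over the 16 arrays. For EDN1 they were AA467197 (0.09), LOC100047619 (0.15) and ICAM1 (0.16), an adhesion molecule of endothelium and leukocytes. For AGTR1A they were STARD8 (0.12), ADD3 (0.12) and ARHGAP24 (0.14). AGT was closest to SRA1 (0.11), KCTD15 (0.12) and PGAM1 (0.12), EDNRA to LOC100045981 (0.06), SELPLG (0.08) and NCF4 (0.08), and EDNRB to D2ERTD391E (0.16), ITM2B (0.18) and PPP1R2 (0.18). A gene that varies little lies close to many others by this measure, so the distances of different genes are not on one footing.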

How the data were processed

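Labeled kidney RNA was hybridized to 16 arrays. The authors imported them with beadarray per the methods, BeadStudio version 2 being named in the submitters' processing notes, and deposited 1 linear intensity per gene. Background correction, normalization and the joining of probes are not given in the sources used here. Array medians were 132 to 133. All columns were used, and no gene was filtered out, since detection p-values are not in the table. Intensities were quantile-normalized, taken to log2 and compared in R 4.3.3 by limma 3.58.1 (lmFit, then eBayes; Benjamini-Hochberg over 18132 genes), as tested on simulated data. Exact two-sided permutation tests counted all splits of the arrays of 2 groups. Summaries used Python 3.11.15, numpy 2.4.6 and pandas 2.3.3, plots matplotlib 3.10.9. The genes and lists were chosen with earlier results of these data known. Named are the 8 genes, IL33, in each list the 4 largest rises and falls called for the mean response (other list genes, SGK1 among them, and motifs were picked after values were seen), markers, and the 3 most similar genes. Alternatives covered normalization, background, dim genes, prior variance, array weights, sets and left-out arrays. Precision is limited by how many arrays there are. The methods describe UUO values as those of single animals, and the labels do not tie arrays to mice, so p-values measure the spread between these samples.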

Additional observations from a re-analysis of the deposited data

Results flagged for a closer look

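Values of 53 named genes were searched in the WT and the IL-33-deficient UUO kidneys, 106 combinations of gene and group, for an array far from the rest of its group. 16 were found, where chance alone gives about 1 in 20 combinations, and the genes of liver were included after their values had been seen. Of the 8 renin-angiotensin and endothelin genes, EDNRA had such a value, 8.20 in WT array 3819, above the other WT kidneys after UUO at 7.66 to 7.87.

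Array 3818 held 5 of the 16 on the high side, APOA1 at 9.75, AHSG at 9.36, MUP1 at 12.05, HPX at 10.43 and SERPINA1E at 10.40, and its IL33 was low at 8.39, below 9.10 to 9.57 in the other WT kidneys after UUO. How these transcripts came to be on the array was not tested. Array 3820 lay toward the controls for HAVCR1 (10.42), HSD11B1 (10.99) and THOP1 (7.80).

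The others were HPX at 7.21 and PLCB3 at 9.14 in IL-33-deficient array 3822, LCN2 at 12.97 in 3899, AQP2 at 8.23 in 3898, ARRB1 at 7.20 in WT array 3819 and ADCY6 at 7.75 in WT array 3893. No response of the 8 genes was found to differ between the genotypes.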

How the results depend on the processing

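Over 29 alternatives, 1283 of 1337 log2 differences of the 8 genes kept their side of the adjusted p of 0.05. These also kept their direction, or changed sign uncalled while moving by less than a standard error from the main value. Of the rest, 12 lost the call, 33 gained it and 9 changed sign while moving further. EDN1 was called in 25 of 26 alternatives in WT and 26 of 26 in IL-33-deficient kidneys, and EDN1, AGT and AGTR1A in 25 of 25 for the mean response, EDNRA in 23 and EDNRB in 21. With 2 controls per genotype, leaving out 1 leaves a lone control that is assumed to vary like the other groups. For the WT response the number of the 8 genes called was 4 with the brighter genes only, 2 with a trend of the prior variance, 4 with array weights, 2 without arrays 3818 and 3820, 0 in set 1, 4 in set 2, 3 with the 2 groups alone, and 1 to 3 with 1 array left out. All genes called were 2989 of 9066 tested with the brighter genes, 2579 with a trend, 4022 with array weights, 4116 without arrays 3818 and 3820, 188 in set 1, 4241 in set 2, 1778 with the 2 groups alone and 809 to 3578 with 1 array left out (1051 without WT control 3811, 809 without 3812). For the IL-33-deficient response 1 of the 8 was called in set 1, 5 in set 2 and 1 to 4 with 1 array left out, and of all genes 2258 in set 1, 4453 in set 2 and 2276 to 4294 with 1 array left out (2276 without control 3813, 2575 without 3814). For the mean response 3225 of all genes were called in set 1, and with 1 array left out 3 to 5 of the 8 and 4196 to 5457 of all genes. The difference in response gave 1 gene without arrays 3818 and 3820, 2 in set 2 and 0 to 1 with 1 array left out, and the controls gave 1 without arrays 3818 and 3820. Between genotypes after UUO, 2 genes were called with array weights, 3 without arrays 3818 and 3820, 0 in set 1, 7 in set 2, 28 against the WT arrays of set 2 and 1 to 2 with 1 array left out. At the threshold of the study there were 168 with the brighter genes, 80 with array weights, 43 without arrays 3818 and 3820, 0 in set 1, 81 in set 2 (1 of the 8), 1 with the set as a block, 127 with 4 groups in 1 model, 226 against the WT arrays of set 2 and 1 to 309 with 1 array left out (309 without 3819). Between sets there was 1 gene with the brighter genes, 278 without arrays 3818 and 3820 (1 of the 8), and 0 to 112 with 1 array left out (112 without 3822).

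Signs changed, with a shift of more than a standard error, for REN1 in the IL-33-deficient response (-0.3747 to 0.0508 with 1 array left out, the highest without control 3813). They also did so for EDNRB in that response in set 1 (0.0776) and in the difference of responses in set 2 (-0.0073). Between genotypes after UUO they changed for AGTR1A without arrays 3818 and 3820 (0.15), in set 2 (0.17) and against the WT arrays of set 2 (0.18), EDN1 in set 2 (-0.0045) and EDNRB in set 1 (0.21). Between sets they changed without arrays 3818 and 3820 for IL33 (-0.0106) and ACE (0.0319). Sign changes with smaller shifts, such as REN1 in the WT response (up to 0.0092) and AGT between genotypes after UUO (down to -0.0325), are not listed. The cause of the sign changes was not tested. Signal close to background limits what ACE and AGTR2 can show.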

Other observations

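Bradykinin is broken down by ACE, and the kinin genes are the other side of this system. KNG2 was above all 4 controls in 12 of 12 UUO kidneys, at 9.44 to 10.02 in controls and 10.31 to 10.68 after UUO, while KNG1, the other kininogen, lay at 11.17 to 11.35 in controls and 11.01 to 11.41 after UUO. The kinin receptors BDKRB1 and BDKRB2 were near background on all arrays. In this section these genes are given by values only, and the test of KNG2 is given above.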
